A study of Mus musculus with 2 samples.

Results

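Macrophage-like nuclei of the mouse right atrium were chosen from single-nucleus RNA counts by a rule on myeloid genes. A nucleus was taken when it had at least 2 counts in all over 11 genes (MRC1, BTK, IKZF1, RUNX1, GATM, INPP5D, MAF, ARHGAP15, SLC43A2, ZDHHC14 and CACNA1A). It also had to have at most 1 count of the sarcomere gene TTN, at most 1 of TNNI3 and MYL4 together, and at most 1 of COL1A1, COL3A1 and FBLN1 together. The rule found 231 of 6408 nuclei, 142 of 3475 in the control library and 89 of 2933 in the Tbx5 G125R/+ library. The choice was made on measured counts, so the levels of these 11 genes, and every difference between the chosen nuclei and other nuclei, are a description and were not tested.

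The study modelled a missense variant of the cardiac transcription factor Tbx5 in mice. One group was adult mice heterozygous for the G125R allele in the germ line (Tbx5 G125R/+), and the other was adult control mice that the protocol describes as wildtype. For each genotype, nuclei of 3 right atria were pooled, sorted for DAPI and made into 1 droplet library, for which 7000 nuclei were loaded. Since each genotype has 1 library, variation between mice could not be measured, no p-values are given, and all 95% intervals cover counting error only.

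Cardiac macrophages are phagocytes that lie between the cardiomyocytes. Some descend from embryonic progenitors and renew themselves in the tissue, while others are replaced from blood monocytes, and they clear debris, signal to fibroblasts and couple electrically to conducting cells. Their identity is held by transcription factors such as PU.1 and MAF, and they depend on signals through the receptor CSF1R.

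Because the chosen nuclei share genes of the myeloid lineage, the promoters of the rule's genes were searched for GAGGAAG on either strand, a form of the site bound by ETS factors such as PU.1. Promoter windows of 300 bases, from 250 before to 50 after the transcription start, were found for 8 of the 11 genes in the RefSeq table (GRCm38.p6). The motif lay in 3 of these 8 genes, a gene counting when any of its windows held it. Arhgap15, Ikzf1, Runx1 and Slc43a2 had an additional window each, without the motif. Of 32851 promoter windows of all genes 13.6% held it, a share by window and so an unlike measure. The matches of these 3 genes are shown here up to base 30 after the start, on the strand of the gene, with the motif or its reverse complement in capitals.
Btk, encoding Bruton tyrosine kinase, chrX:134583111-134583390, minus strand, match 9 bases after the start: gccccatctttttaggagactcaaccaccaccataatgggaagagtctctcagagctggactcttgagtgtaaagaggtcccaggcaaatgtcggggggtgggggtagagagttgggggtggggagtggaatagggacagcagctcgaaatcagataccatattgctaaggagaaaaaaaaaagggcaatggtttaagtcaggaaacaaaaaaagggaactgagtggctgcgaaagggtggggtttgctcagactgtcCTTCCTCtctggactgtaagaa
Inpp5d, encoding the inositol phosphatase SHIP-1, chr1:87620062-87620341, plus strand, match 20 bases before the start: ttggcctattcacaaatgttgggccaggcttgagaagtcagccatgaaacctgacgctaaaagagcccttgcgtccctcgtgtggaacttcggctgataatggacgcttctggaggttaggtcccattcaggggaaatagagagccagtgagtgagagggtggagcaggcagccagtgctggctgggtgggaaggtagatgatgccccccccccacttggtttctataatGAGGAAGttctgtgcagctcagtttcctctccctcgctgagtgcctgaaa
Mrc1, encoding the mannose receptor CD206, chr2:14229164-14229443, plus strand, matches 168 and 36 bases before the start: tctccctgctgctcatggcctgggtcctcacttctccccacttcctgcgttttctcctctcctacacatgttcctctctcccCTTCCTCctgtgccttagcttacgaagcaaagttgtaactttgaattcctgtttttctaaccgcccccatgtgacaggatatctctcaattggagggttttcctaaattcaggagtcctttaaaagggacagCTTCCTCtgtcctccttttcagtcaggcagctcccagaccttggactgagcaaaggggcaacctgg
Of the 20 leading genes outside the rule described next to the markers, 13 had a window in the table. Counted by gene in the same way, 1 of them, Btg2, held the motif. A match is a stretch of letters and not a measured binding site.

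The nuclei were shallow. The chosen nuclei had a median of 141 counts (48 to 316), close to the median of 132 over all nuclei, and a median of 121 genes. They held 34436 counts, 21858 in the control and 12578 in the Tbx5 G125R/+ library. With the rule's genes left out, 21416 and 12320 counts remained, and all levels are given per 10000 of these. The tables list human Ensembl identifiers beside every gene although the tissue was mouse, and 93.8% of the counts in the chosen nuclei belonged to symbols shared with a mouse gene.

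The rule's genes each contributed to the choice. The transcription factor MAF was found in 117 of the 231 nuclei, with 111 control and 54 Tbx5 G125R/+ counts. ARHGAP15, a GTPase-activating protein for Rac, was found in 108 nuclei, with 92 and 63 counts. These genes occurred together in 37 nuclei, the most frequent pair. ZDHHC14, a protein palmitoyltransferase, was found in 57 nuclei (46 and 22 counts), INPP5D, a phosphatase that restrains signals of immune receptors, in 52 (39 and 20), and the calcium channel subunit CACNA1A in 40 (26 and 15). The haematopoietic factors RUNX1 and IKZF1 were found in 33 and 21 nuclei, with 18 and 18 counts and with 14 and 8 counts. BTK was found in 22 nuclei (16 and 6 counts), the amino acid transporter SLC43A2 in 20 (12 and 8), the creatine synthesis enzyme GATM in 10 (8 and 4), and MRC1 in 9 (6 and 3).

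**Figure D1:**
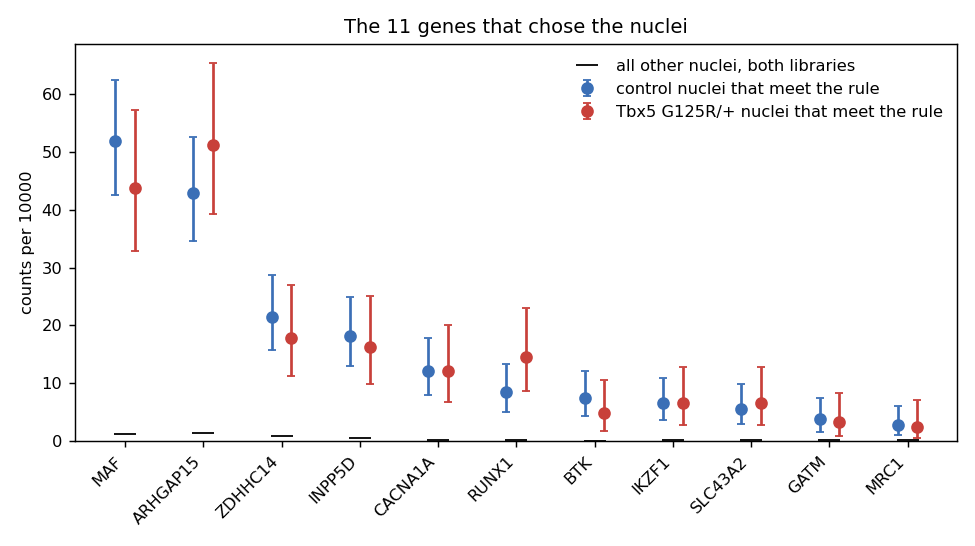
Counts per 10000 (vertical axis) of the 11 genes of the rule in the chosen nuclei of each library, with exact Poisson 95% intervals, and in all other nuclei of both libraries (black dashes). Each gene stands above the other nuclei because it was used to choose them, MAF for example at 51.8 in control and 43.8 in Tbx5 G125R/+ against 1.25 in other nuclei.

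Most nuclei were close to the threshold. Of the 3945 nuclei that passed the exclusions, 3422 had no count of the rule's genes, 292 had 1, 142 had 2, 49 had 3 and 40 had 4 or more, with 7 as the highest. The median depth rose over these steps, from 116 counts per nucleus at 0 to 122, 126.5, 154 and 170. A single rule gene carried the choice in 42 nuclei (18.2%), most often ARHGAP15 (19 nuclei) or MAF (17), while 134 nuclei had 2 different rule genes, 41 had 3 and 14 had 4. A further 28 nuclei reached 2 counts and were left out for genes of cardiomyocytes or fibroblasts. No doublet caller was used, and none of the 231 nuclei had 2 or more counts of the endothelial genes FLT1, PTPRB, KDR, TEK and ERG.

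The same threshold was read in nuclei chosen for genes of other cell types. Among 998 nuclei with at least 3 counts of TTN, at a median depth of 240.5 counts, 6 had 2 or more counts of the rule's genes (0.601%, exact 95% interval 0.221 to 1.30). Among 734 nuclei with at least 2 counts of COL1A1, COL3A1 and FBLN1 and at most 1 of TTN, at a median of 146 counts, 6 had them (0.817%, 0.301 to 1.77). Of 80 nuclei with at least 2 endothelial counts, none had them, which by the exact binomial interval allows up to 4.51%. Over all nuclei that passed the exclusions the share was 5.86%.

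Myeloid markers that the rule did not use were then read. Of 44 listed symbols, 17 were in the tables and 13 had a count in the chosen nuclei. Their summed level was 21.6 per 10000 (exact Poisson 95% interval 17.0 to 27.2), with 51 control and 22 Tbx5 G125R/+ counts, against 3.75 in all other nuclei. It was 2.85 in fibroblast nuclei, 3.69 in endothelial nuclei and 1.29 in cardiomyocyte nuclei, 3 sets chosen by rules of the same kind (658, 68 and 992 nuclei, median depths 142, 146 and 240 counts). The list was thus several times more abundant in the chosen nuclei than in any of these sets.

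Of these 13 markers, 3 had 10 or more counts, and all 3 were more than 2-fold higher than in other nuclei, as were 211 of 769 genes with that many counts (27.4%, with 5.98% lower). AIF1, the macrophage protein IBA1, had 7 control and 3 Tbx5 G125R/+ counts and was present at 2.96 per 10000 against 0.19 in other nuclei. RBPJ, the effector of Notch signalling, had 12 and 4 counts (4.74 per 10000 against 1.28), and the ETS factor FLI1 had 9 and 3 (3.56 against 1.02). FLI1 was equally frequent in endothelial nuclei, at 3.69. Below 10 counts, the Src-family kinase LYN had 7 and 2 counts, the thromboxane synthase TBXAS1 4 and 4, and the Rac activator DOCK2 4 and 2, the last being absent from fibroblast, endothelial and cardiomyocyte nuclei. TBXAS1 and DOCK2 were picked after their values were seen.

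Several defining macrophage genes were nearly absent at this depth. PTPRC (CD45) and CSF1R had 1 count each in the chosen nuclei, and CX3CR1 and SPI1 (PU.1) had none, which allows a level of up to 1.09 per 10000. In all other nuclei, which held 927976 counts, these 4 genes had 5, 3, 1 and 2 counts. Of the resident macrophage list, 4 of 12 genes were measured, with 4 counts of the growth factor IGF1 and 3 of the clotting factor chain F13A1, and of the 14 genes of monocyte-derived cells and MHC class II only S100A9 was measured, with no count. CD163, LYVE1, CD68, CD74 and CCR2 were not analysed here. Resident and monocyte-derived macrophages were therefore not told apart.

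Genes outside the rule were compared with their level in other nuclei. Of 364 genes with at least 20 counts, 88 were 2-fold or more higher than in other nuclei (24.2%) and 25 were 2-fold or more lower (6.87%). PID1, an adaptor that binds the receptor LRP1, had 20 and 19 counts, 11.6 per 10000 (8.22 to 15.8) against 1.10 in other nuclei, a log2 difference of 3.41. It was found in 16.5% of the chosen nuclei, in 0.912% of fibroblast nuclei at a like depth and in 0.202% of the deeper cardiomyocyte nuclei.

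The other leading genes had a range of roles. ABCA1, which exports cholesterol from macrophages, had 29 control and 10 Tbx5 G125R/+ counts and a log2 difference from other nuclei of 2.36. SKAP2, an adaptor of integrin signalling in myeloid cells, had 13 and 7 counts and a difference of 2.61. FOS, an immediate-early factor, had 34 and 20 counts and a difference of 2.76, while JUN, with 29 and 13 counts, had a difference of -0.25. The adhesion molecule CADM1, the endocytic scaffold ITSN1 and the zinc finger gene ZNF710 lay between 2.79 and 3.00. SKIL, LRMDA, TUT7, ZFHX3, PLEKHO1, BTG2, SMAP2, WWP1, PITPNC1, NMBR and the plasma membrane calcium pump ATP2B1 lay between 2.03 and 2.28.

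All 20 leading genes were 2-fold or more higher than in other nuclei in each library read alone. All 20 were also 2-fold or more above fibroblast and cardiomyocyte nuclei, and 19 were above endothelial nuclei. The exception was LRMDA, at 14.2 per 10000 against 8.31 in endothelial nuclei.

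**Figure D2:**
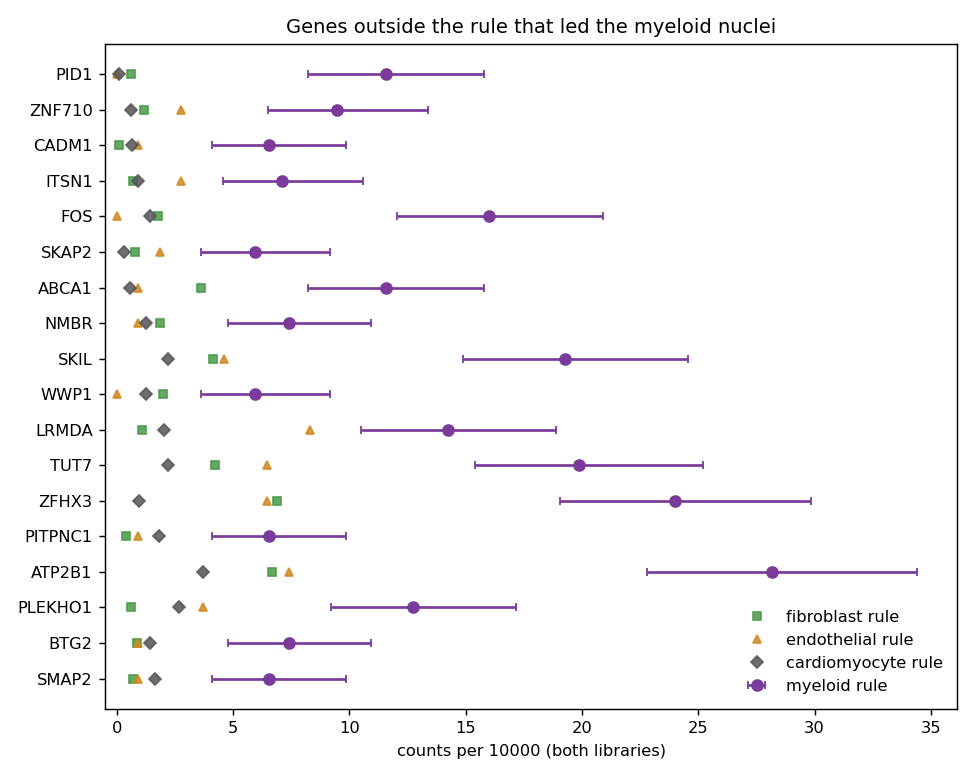
Counts per 10000 (horizontal axis) of 18 of the 20 genes outside the rule with the largest difference from other nuclei, in the 231 chosen nuclei (purple, exact Poisson 95% interval) and in nuclei of the fibroblast, endothelial and cardiomyocyte rules, both libraries together. The purple points lie between 5.93 and 28.2 and all stand to the right of the other sets. LRMDA alone was less than 2-fold above endothelial nuclei.

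Among 16 listed transcription factors of macrophages, 7 had at least 10 counts and 6 were 2-fold or more higher than in other nuclei (among them RBPJ, ZEB2, MEF2A, MEF2C and RREB1), beside 27.4% of all genes with that many counts. ZEB2, a zinc finger repressor needed for macrophage identity, had 411 control and 220 Tbx5 G125R/+ counts. It was found in 79.2% of the chosen nuclei and in 69.1% of fibroblast nuclei, at levels of 187 and 103 per 10000. MEF2C stood at 58.4 per 10000 in control and 45.5 in Tbx5 G125R/+ nuclei (181 counts together), against 23.9 in other nuclei. MEF2A had 96 and 47 counts, 42.4 per 10000 against 15.1. Both were also frequent in cardiomyocyte nuclei, at 30.9 and 20.2. TCF4, with 74 and 55 counts, was the factor below 2-fold (38.2 against 24.0), and it was as high in endothelial nuclei, at 35.1.

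Functional lists were sparse. Of 11 measured genes of phagocytosis and lysosomes, 2 had at least 10 counts. The list summed to 16.3 per 10000, against 10.2 in other nuclei and 19.0 in fibroblast nuclei. LAMP2, a lysosomal membrane protein, had 10 control and 6 Tbx5 G125R/+ counts and was present at 4.74 per 10000 against 1.20 in other nuclei, and the scavenger receptor LRP1 had 20 and 11 (9.19 against 7.05, and 15.4 in fibroblast nuclei). Of 13 measured genes of immune receptor signalling, the ubiquitin ligase CBL passed with 15 and 6 counts (6.22 against 1.92). In the iron and heme list, BLVRB, which reduces biliverdin, had 12 and 7 counts (5.63 against 1.63). In the list of cytokines and growth factors, TGFB1 had 13 and 3 (4.74 against 2.07). That list as a whole was lower in the chosen nuclei, at 10.1 per 10000 against 21.8 in other nuclei and 13.3 in fibroblast nuclei. The vesicle motor MYO5A had 11 and 8 counts (5.63 against 0.88). Proliferation genes had 4 counts in all, 3 of them of TOP2A.

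Markers of other cell types were low. The 13 measured fibroblast markers outside the rule summed to 5.04 per 10000 against 76.8 in fibroblast nuclei, with DCN, PDGFRA and LAMA2 at 0 and TCF21 at 1 count. The 10 endothelial markers summed to 1.19 against 150 in endothelial nuclei, and 8 of them were at 0. However, 5 of the 10 were the genes that chose the endothelial nuclei, and these made up 140 of the 150. That level was thus largely set by the choice, and the 1.19 in the myeloid-rule nuclei also came from these 5 genes. The lymphoid and mast cell list had 4 counts over 6 measured genes (1.19 per 10000), with LCK, BCL11B and KIT at 0. Mural, epicardial and glial lists had 5, 2 and 1 counts.

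Cardiomyocyte transcripts were present in the chosen nuclei. The 14 markers summed to 44.8 per 10000 in the chosen nuclei (37.9 to 52.5), to 60.0 in fibroblast nuclei, to 48.9 in endothelial nuclei and to 456 in cardiomyocyte nuclei. The list was thus no higher in the chosen nuclei than in the other non-muscle nuclei. MYH6, the atrial myosin heavy chain, had 16 control and 12 Tbx5 G125R/+ counts, at 8.30 per 10000 against 9.53 in fibroblast nuclei and 156 in cardiomyocyte nuclei. Of the 10 genes furthest below other nuclei, MYH6 was first, with a log2 difference of -2.78, followed by the peptide-amidating enzyme PAM, by MYH7, the calcium pump ATP2A2, ZBTB20, TPM1, the nucleotide carrier SLC25A4, ACTC1, EBF1 and ARHGAP31, up to -1.54. TBX5 and NPPA had no count in the chosen nuclei of either library, which allows up to 1.09 per 10000, and stood at 0.81 and 0.28 in cardiomyocyte nuclei.

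Levels of the unused genes were compared along the rule's own count. In nuclei that passed the exclusions, ZEB2 stood at 80.4 per 10000 with no rule count, at 135 with 1, just outside the threshold, and at 195 with 2, just inside it. With 3 and with 4 or more it stood at 182 and 172. FOS went from 2.33 to 10.4 and 14.3, then 15.5 and 21.3. The summed myeloid list went from 4.13 to 13.8 and 18.5, then 25.8 and 25.6. The fibroblast factor TCF21 went the other way, from 8.20 with no rule count to 2.39 with 1 and to 0 of 18935 counts with 2. Nuclei with 1 rule count thus lay between the others for each of these genes.

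**Figure D3:**
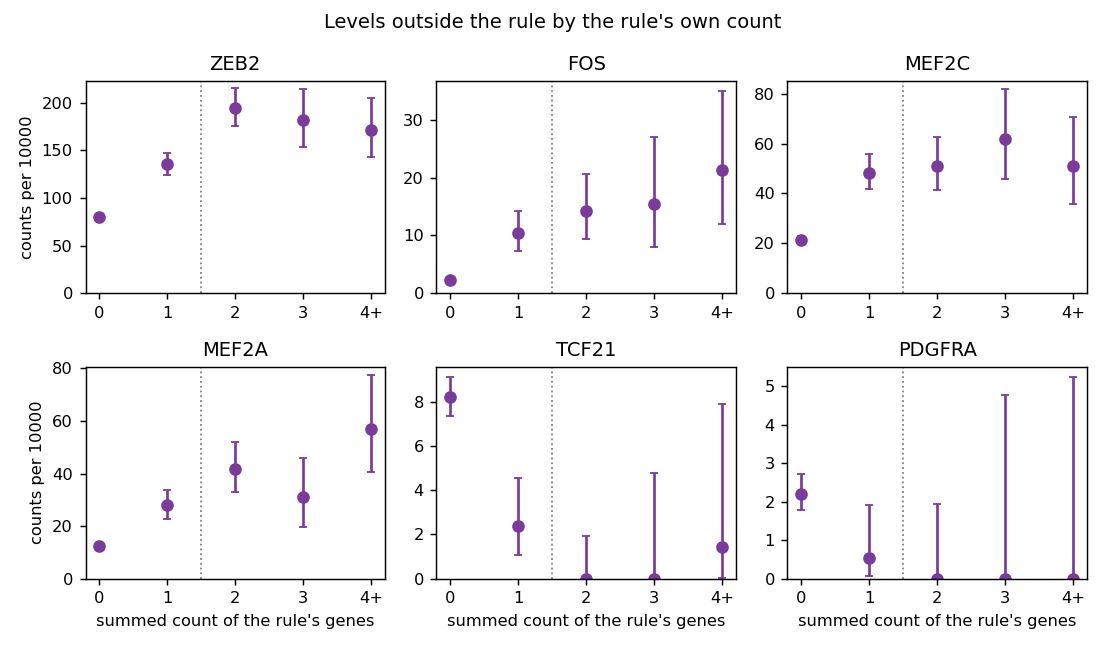
Counts per 10000 (vertical axes) of 6 genes outside the rule in nuclei that passed the exclusions, by the summed count of the rule's genes (0, 1, 2, 3, 4 or more), with exact Poisson 95% intervals and the threshold as a dotted line. ZEB2, FOS, MEF2C and MEF2A are lowest at 0, with ZEB2 at 80.4, and TCF21 and PDGFRA are highest there, with TCF21 at 8.20.

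Nuclei that rested on a single rule gene were compared with those that had more. ZEB2 stood at 181 per 10000 in the 42 nuclei with 1 rule gene and at 188 in the other 189. The myeloid list summed to 16.6 and 22.7 per 10000. LYN had no count in the 42 nuclei and 9 in the 189. MYH6 stood at 18.2 (11 counts) and 6.14 (17 counts). In the 43 nuclei with neither MAF nor ARHGAP15, ZEB2 stood at 184 per 10000, against 175 to 197 in the nuclei with either or both. The 9 nuclei with MRC1 held 1197 counts in all, too few for a profile of their own.

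The share of nuclei that met the rule was lower in the Tbx5 G125R/+ library. It was 3.03% (exact 95% interval 2.44 to 3.72) against 4.09% (3.45 to 4.80) in control, a ratio of 0.743 (0.563 to 0.975). Among nuclei that passed the exclusions it was 4.77% (89 of 1864) against 6.82% (142 of 2081), a ratio of 0.700 (0.531 to 0.918). With every nucleus thinned to 100 counts, which left out 882 Tbx5 G125R/+ and 796 control nuclei, the shares were 2.28% (1.69 to 3.04) and 2.98% (2.37 to 3.70), with intervals that overlap. Other shares of the same libraries also differed. Fibroblast nuclei made up 8.52% and 11.7%, cardiomyocyte nuclei 16.9% and 14.3%, and endothelial nuclei 1.09% and 1.04%, and the median nucleus had 108 and 118 genes. With 1 pool of 3 atria each, genotype, pool and library cannot be told apart.

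**Figure D4:**
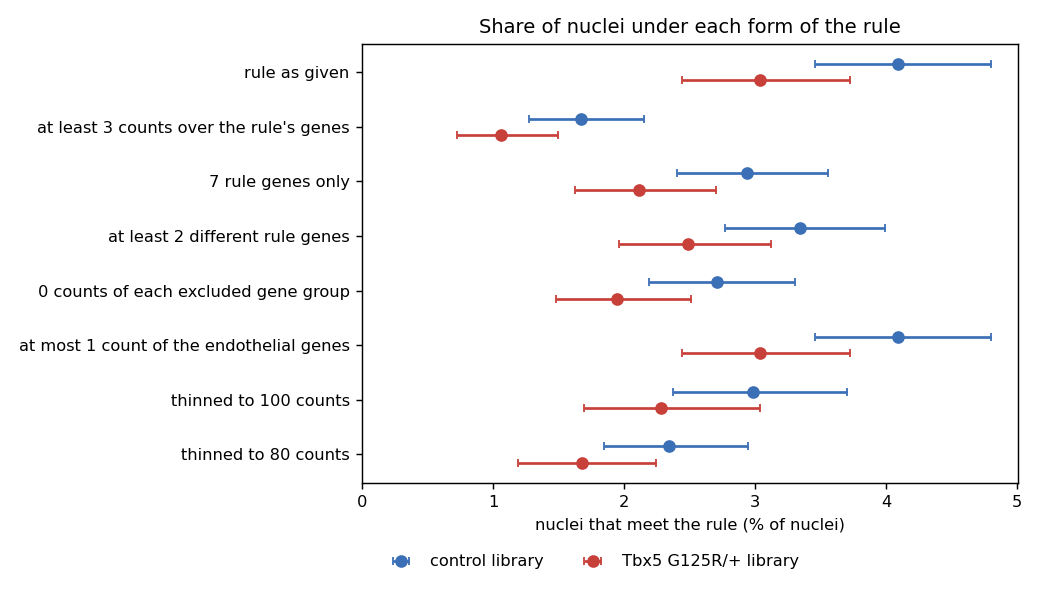
Share of nuclei that met the rule (horizontal axis, % of nuclei of the library, exact binomial 95% interval) in the control (blue) and Tbx5 G125R/+ (red) libraries, under the rule as given and 7 other forms of it, the last 2 with each nucleus thinned to a fixed count. The Tbx5 G125R/+ share lies to the left in each form, at 3.03% against 4.09% as given.

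Within the chosen nuclei, few genes differed between the libraries by more than the counts can show. Of 364 genes with at least 20 counts, 16 were 2-fold or more higher in Tbx5 G125R/+ (4.4%) and 13 were 2-fold or more lower (3.57%), 29 in all (7.97%). Over all 364 genes, whether past 2-fold or not, the counting interval lay above 0 for 8 and below 0 for 5. Among this many genes some intervals leave out 0 without any difference, and the number of such intervals was not estimated. Among the 142 genes with at least 40 counts none reached 2-fold in either direction, and their log2 ratios ran from -0.85 to 0.76. The median half-width of the interval was 0.79 on the log2 scale for these genes, and 1.13 from 20 counts, so that changes below about 2-fold were not detectable for most genes. The median log2 ratio over the 364 genes was 0.04.

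High ratios among genes with at least 40 counts included those of ZSWIM6 and DDX17. DDX17, an RNA helicase, had 45 counts from Tbx5 G125R/+ nuclei and 47 from control nuclei, for a log2 ratio of 0.74 (0.11 to 1.36), beside -0.13 in all other nuclei. ZSWIM6 had 36 and 37 counts, a ratio of 0.76 (0.05 to 1.46), with 0.08 in other nuclei. Of the 15 highest, 12 had intervals that included 0, among them TXNRD1, BCLAF1, UBB, CITED2 and ID3.

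The lowest ratios belonged to SRSF10, CHD7 and PABPC1. SRSF10, a splicing factor, had 14 Tbx5 G125R/+ and 45 control counts (log2 ratio -0.85), CHD7, a chromatin remodeller, 10 and 30 (-0.74), and PABPC1, which binds poly(A) tails, 16 and 47 (-0.73). The ratios of CHD7 and PABPC1 were smaller than the median half-width of the interval for genes with at least 40 counts (0.79). That median is taken over many genes and is not the interval of CHD7, PABPC1 or SRSF10. The larger ratio of SRSF10 was therefore not shown to exceed counting error. HSPA5, the chaperone BiP of the endoplasmic reticulum, had 29 and 83 counts, a ratio of -0.70 (-1.38 to -0.09), with -0.29 in all other nuclei. ACTB had 24 and 64 counts, a ratio of -0.60 (-1.36 to 0.08), with -0.52 in other nuclei.

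DDX5, an RNA helicase, stood at 413 per 10000 in Tbx5 G125R/+ nuclei (509 counts) and at 361 in control nuclei (774 counts), which gives 0.19 on the log2 scale (0.03 to 0.36), beside 0.34 in all other nuclei. Among nuclei with at least 3 counts of the rule's genes it was -0.01. MALAT1, a nuclear long noncoding RNA, had 69 and 111 counts, a ratio of 0.12 (-0.34 to 0.56). For the lineage genes the intervals included 0. ZEB2 had 220 and 411 counts (-0.10, -0.35 to 0.14), MEF2C 181 in all (-0.35, -0.84 to 0.11) and FOS 20 and 34 (0.05, -0.84 to 0.87).

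**Figure D5:**
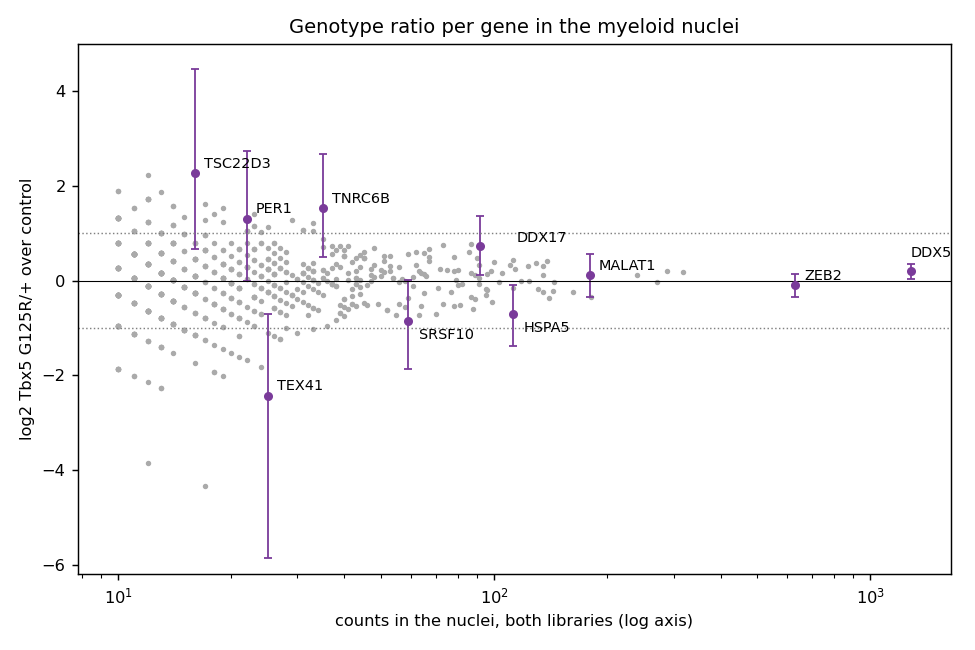
Log2 ratio of Tbx5 G125R/+ over control (vertical axis) against the counts in the chosen nuclei of both libraries (horizontal log axis) for genes outside the rule with at least 10 counts, with counting 95% intervals for 10 named genes and dotted lines at 2-fold. The spread narrows with counts, and from 40 counts every gene lies between -0.85 and 0.76.

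Of the gene lists, that of glucocorticoid-responsive genes had the highest median. It had 4 genes with at least 10 counts, 3 above 0 and 2 past 2-fold upward, beside 8.32% of all 769 genes with that many counts past 2-fold upward and 7.54% downward. Its median log2 ratio was 0.93 against 0.06 over these genes. The list summed to 34.9 per 10000 in Tbx5 G125R/+ and 21.9 in control nuclei, and it was also higher in Tbx5 G125R/+ in all other nuclei (42.2 against 28.4) and in cardiomyocyte nuclei (24.2 against 19.5). TSC22D3 (GILZ, chrX:140539528-140600522), which is induced by glucocorticoids and restrains inflammatory signalling, had 12 Tbx5 G125R/+ and 4 control counts, 9.74 and 1.87 per 10000, a log2 ratio of 2.27 (0.66 to 4.47), with 0.27 in all other nuclei. The counts came from 9 and 3 nuclei, with up to 4 in 1 nucleus, so they were not all independent. The gene was looked up because the study's own table, made from these libraries, lists it, so its direction here is no independent evidence. The same holds for its part in the list's median, sum and number of genes past 2-fold, which were not computed without it. PER1, a clock gene that glucocorticoids induce, had 13 and 9 counts (1.30, -0.01 to 2.73), ZBTB16 5 and 6 (0.56), and NFKBIA, the inhibitor of NF-kappaB, 3 and 7 (-0.30).

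All 11 genes of splicing and nuclear RNA had at least 10 counts and 10 lay above 0, with a median of 0.18 and none past 2-fold. Of the 7 transcription factors 2 lay above 0, with a median of -0.12, and the 3 myeloid markers all lay below 0, with a median of -0.64 and none past 2-fold. TGFB1, with 3 Tbx5 G125R/+ and 13 control counts, was at -1.15 (-3.77 to 0.55), past 2-fold downward, and was the one gene of the cytokine and growth factor list with at least 10 counts. The sum over that list was 6.49 per 10000 in the Tbx5 G125R/+ library against 12.1, which is -0.84 on the log2 scale (-2.26 to 0.28). The cardiomyocyte list summed to 50 and 101 counts, a log2 ratio of -0.21 (-0.74 to 0.29), and its part in these ratios was not tested.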

How the data were processed

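Single-nucleus RNA-seq libraries of right atria were analysed, 1 for each of 2 genotypes. The authors deposited raw counts per nucleus and gene, not normalized, after keeping nuclei with at least 1000 reads. The submitters' processing notes name mm10, and no source used here gives the aligner or counting tool. A deposited table of the authors' fold changes and corrected p-values per cluster was not used, nor was the deposited cluster column. Nucleus names shared by the libraries numbered 0. Overlapping, antisense and paralogous genes could not be told apart.

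Counts were summed over the chosen nuclei of each library (Python 3.11.15, pandas 2.3.3, numpy 2.4.6). Ratios took 0.5 counts added to each sum and totals without the rule's genes, with exact Poisson or Clopper-Pearson 95% intervals (scipy 1.17.1). The interval code was tested on simulated data. Fibroblast nuclei had at least 2 counts of COL1A1, COL3A1 and FBLN1, endothelial nuclei at least 2 of 5 measured endothelial genes, and cardiomyocyte nuclei at least 3 of TTN. All 3 sets had at most 1 count of the myeloid rule's genes, fibroblast and endothelial nuclei also met the limits on TTN and on TNNI3 and MYL4, and endothelial nuclei that on the collagen group.

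Named genes were the rule's genes, listed myeloid genes with at least 10 counts, the 20 highest and 10 lowest against other nuclei (20 counts or more), the 15 highest and 15 lowest between genotypes (40 or more), up to 4 per list, and TBX5, DDX5, MALAT1, TSC22D3 and NPPA. Members, lists and rules were chosen with earlier results of these data known. Alternatives were stricter rules, thinning, other scalings and other count minimums. A few genes that the rule names are not reported here.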

Additional observations from a re-analysis of the deposited data

How the results depend on the processing

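The ratio of the shares (0.743) stayed between 0.633 and 0.766 under 6 other forms of the rule. Requiring at most 1 endothelial count removed no nucleus and so tested nothing. The Tbx5 G125R/+ and control shares were 1.06% and 1.67% with at least 3 counts, 2.11% and 2.94% with 7 rule genes, 1.94% and 2.71% with none of the excluded genes, 2.28% and 2.98% thinned to 100 counts and 1.68% and 2.34% thinned to 80, and the control share was 3.34% with 2 different rule genes. The 29 genes past 2-fold became 7 with at least 3 counts of the rule, 13 with 7 rule genes and 17 with none of the excluded genes, with fewer genes tested each time (116, 243 and 203 of 364), and the share of them that was higher went from 55.2% to 28.6%, 38.5% and 41.2%. With a minimum of 10 counts they were 122, with no minimum 1607, and with a minimum of 40 there were 0. The 3 myeloid markers above 2-fold became 0 with at least 3 counts of the rule, 1 with 7 rule genes, 1 with none of the excluded genes and 0 from 20 counts, since fewer of them then reached the minimum. Lymphoid and glial sums became 0 with at least 3 counts, and the glial sum also with 2 different rule genes. With none of the excluded genes the cardiomyocyte sum was 36.8 per 10000 and the mural sum 0.472. List genes above 0 went from 22 (with 17 below 0) to 13 (10 below) with at least 3 counts and to 14 (11 below) from 20 counts. Fewer genes reached the minimum in these forms. The log2 genotype ratio of DDX5 went from 0.19 to -0.01 with at least 3 counts of the rule, and that of MALAT1 from 0.12 to -0.11 with none of the excluded genes. No paired analysis was possible because each genotype has 1 library, and no replicate could be left out. Depth limited the genotype comparison, since most genes had fewer than 20 counts.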

Other observations

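4 genes outside the rule for named genes were picked after their values were seen. TEX41, a long noncoding RNA, had 2 Tbx5 G125R/+ and 23 control counts in the chosen nuclei, a log2 ratio of -2.43 (-5.86 to -0.71), while its ratio in all other nuclei was 0.33. TNRC6B, which acts in silencing by microRNAs, had 22 and 13 counts, a ratio of 1.53 (0.50 to 2.67), with -0.12 in other nuclei. POLG, the mitochondrial DNA polymerase, had 0 and 17 counts, and ST8SIA4, a polysialyltransferase, had 0 and 12, where no count allows up to 2.99 per 10000. Each of these genes had fewer than 40 counts in the chosen nuclei.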
